A study of Mus musculus with 14 samples.

Results

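To ask which transcripts depend on the NMDA receptor subunit *Grin2d* when aspartate is present, 4T1 tumor spheroids with a hairpin against *Grin2d* (ASP shGRIN2D, n = 3 libraries) were compared with spheroids carrying a control hairpin (ASP shSCR, n = 4 libraries). These 7 libraries were chosen by the names of their count columns, out of 14 in the series. 4T1 is a mouse triple-negative breast cancer line, and all 7 cultures were grown for 5 days in lung-like medium, which mimics the nutrients of lung interstitial fluid, with 700 µM aspartate added. The RNA was the cytosolic lysate kept as input of a polysome experiment, taken after a wash with cycloheximide, which stalls ribosomes on mRNA. Both groups were polyclonal lines transduced with a lentiviral pLKO vector and selected with puromycin, the control hairpin matched no gene by design, and the labels name a single *Grin2d* knockdown. Neither a second hairpin nor a rescue was among the libraries, and the hairpin sequence is not given in the sources used here, so an effect of *Grin2d* loss and another effect of the same hairpin cannot be told apart.

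NMDA receptors are channels that open when an acidic amino acid and a co-agonist bind, and they then let calcium into the cell. *Grin2d* encodes one of the subunits that carry the acidic amino acid, and in the brain calcium from these receptors acts on calmodulin-dependent kinases, on the transcription factor CREB and on the immediate-early genes that CREB switches on. A hairpin vector lowers an mRNA through a small RNA that is loaded into an Argonaute protein, and the first bases of such an RNA, its seed, can also pair with short matches in the 3′ UTRs of other mRNAs.

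The 7 libraries held 12731123 to 23231378 counts over 19525 genes, and levels are printed as CPM, the counts of a gene relative to the TMM-scaled total of its library. Log2 CPM of replicates correlated across genes at Pearson r between 0.986 and 0.989, and the chi-square of their counts per degree of freedom was 9.59 or more, so no 2 libraries were the same one under 2 names. Replicate 2 of ASP shSCR stood apart, at -43.4 and -42.9 on the first 2 principal components of the 7 libraries. Replicate 4 of ASP shSCR, which held the fewest counts, lay at -25.5 and 42.2, almost as far out on the second component on the other side. Results that rest on replicate 2 are given with and without it. Of the markers of cell types, 6 carcinoma markers (*Epcam*, *Krt8*, *Krt18*, *Krt14*, *Krt19*, *Cdh1*) summed to 3200 to 3450 CPM in ASP shGRIN2D and 4190 to 4320 CPM in ASP shSCR. Leukocyte markers summed to at most 1.70 CPM and endothelial ones to at most 0.867 CPM in any library. Of 6 fibroblast markers *Pdgfrb*, *Lum*, *Col1a2* and *Col3a1* were not in the table and *Dcn* reached at most 3 counts, so the fibroblast sum of 25.9 to 29.1 CPM in ASP shGRIN2D and 27.5 to 40.7 CPM in ASP shSCR rested on *Pdgfra*.

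*Grin2d* itself (ENSMUSG00000002771) was read at few counts. ASP shSCR replicates 1 to 4 held 76, 58, 75 and 53 counts, which is 3.32, 3.23, 3.68 and 4.16 CPM. ASP shGRIN2D replicates 1 to 3 held 40, 37 and 47 counts, which is 2.06, 2.17 and 3.13 CPM. The 3 knockdown libraries all lay under the 4 controls, although the highest of them nearly reached the lowest control. On the log2 scale the fold change was -0.55 (SE 0.28, confidence interval -1.18 to 0.07). It missed the threshold (adjusted p = 0.516, Benjamini-Hochberg, from edgeR's quasi-likelihood test across all genes). The interval held both no change and a partial fall, while falls beyond -1.18 lay outside it. The labels thus could not be checked firmly on the targeted gene at this depth. The paper checked its knockdown lines by quantitative PCR, which was not set beside these counts. Of 25 NMDA and other glutamate receptor genes, 8 were in the table, 3 had more than 3 counts in a library and 0 were called. The abundant one was *Grina*, a relative of the receptor-associated proteins, at 108, 100, 110 and 116 CPM in ASP shSCR and 123, 129 and 133 CPM in ASP shGRIN2D (log2 fold change 0.25, adjusted p = 0.303).

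A gene was called when its adjusted p was under 0.05. By this rule 1.16% of the 19525 genes were called, 0.425% higher (83) and 0.732% lower (143) with the knockdown, and the share was 1.89% of the genes whose mean reached 5 CPM. Lists below are set beside the share of all genes, although for lists of well expressed genes the share at 5 CPM is the closer one. In 225 of the 226 called genes no library of one group lay within the range of the other, which held for 12% of all genes. A lack of overlap in a called gene below thus adds little to its call. The differences were mostly moderate: 25 called genes were at least 2-fold higher and 21 at least 2-fold lower. Without replicate 2 of ASP shSCR 208 genes were called, and 177 of them were the same genes. The count was lowest without a knockdown library, 86 without replicate 1, 114 without replicate 2 and 97 without replicate 3, and 72 genes (26 higher, 46 lower) were called in each of the 7 fits that left out 1 library.

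**Figure D1:**
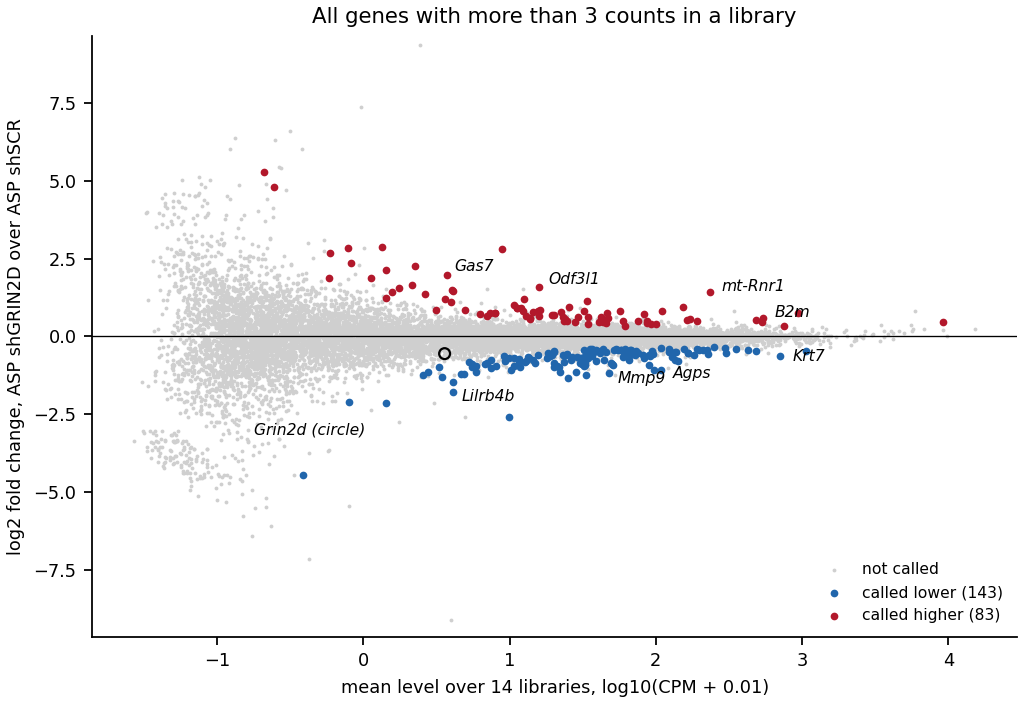
Each point is a gene with more than 3 counts in a library, placed by its mean level over the 14 libraries (horizontal, log10 of CPM + 0.01) and its log2 fold change of ASP shGRIN2D over ASP shSCR (vertical). The 83 genes called higher (red) and the 143 called lower (blue) reach from low to high levels, and *Grin2d* (black circle) lies among the genes not called (grey) at -0.55.

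Among the clearest falls were enzymes of lipids and membranes. *Agps* (ENSMUSG00000042410), the peroxisomal enzyme that makes the ether bond of ether lipids, measured 128, 121, 132 and 127 CPM in ASP shSCR and 60.2, 60.4 and 57.9 CPM in ASP shGRIN2D. Both groups were tight and lay far apart. The log2 fold change was -1.09 (SE 0.09, adjusted p = 3.53e-07), the smallest adjusted p of the comparison. *Pi4k2b* (ENSMUSG00000029186), a kinase that makes phosphatidylinositol 4-phosphate, fell in the same way from 108, 123, 108 and 110 CPM to 53.2, 52.4 and 55.3 CPM (log2 fold change -1.07, SE 0.09, adjusted p = 8.81e-07). *Ankrd1*, a nuclear ankyrin repeat protein known as a YAP target, measured 25.8, 27.5, 21.8 and 29.4 CPM in the controls and 11.4, 12.2 and 12 CPM with the knockdown (-1.13, SE 0.12, adjusted p = 1e-05). Each knockdown library of these 3 genes lay far under the lowest control. *Pcmtd1*, a relative of the methyltransferase that repairs damaged aspartate residues in proteins, went from 39.2, 56.0, 35.7 and 36.0 CPM to 19.6, 17.0 and 16.1 CPM (-1.25, SE 0.15, adjusted p = 4.85e-05). *Cyb561a3*, a ferric reductase of lysosomes, went from 32.0, 37.3, 28.3 and 27.7 CPM to 14.3, 16.0 and 12.2 CPM (-1.14, SE 0.15, adjusted p = 0.000142).

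Of the remaining 10 genes named for the largest falls, several were receptors or secreted proteins. *Lilrb4b*, an inhibitory receptor of the immunoglobulin family with a near-identical neighbour that makes its counts less certain, measured 4.50, 8.80, 5.24 and 5.58 CPM in ASP shSCR and 1.29, 1.70 and 2.27 CPM in ASP shGRIN2D (-1.79, SE 0.32, adjusted p = 0.00391, and 0.0596 without ASP shGRIN2D replicate 1). *Sema6a*, a membrane-bound guidance cue, measured 4.28, 6.52, 5.24 and 5.18 CPM and then 2.06, 1.47 and 2.27 CPM (-1.46, SE 0.23, adjusted p = 0.00122). *Pgap1*, which removes an acyl chain from the inositol of new GPI anchors, measured 28.9, 56.0, 31.3 and 34.2 CPM and then 16.6, 15.1 and 13.1 CPM (-1.33, SE 0.23, adjusted p = 0.00301, and 0.074 with edgeR's robust prior). A lack of overlap between groups was a condition for naming these 3 genes. Replicate 2 of ASP shSCR was the highest control each time. *Mmp9*, a secreted gelatinase, showed that replicate most strongly, with 56.1, 110, 55.9 and 61.4 CPM in ASP shSCR against 25.5, 32.5 and 35.2 CPM in ASP shGRIN2D (-1.19, SE 0.21, adjusted p = 0.003), and it was called in all 7 fits without 1 library but not with a robust prior (adjusted p = 0.0744 in edgeR). *Npr3*, the clearance receptor of natriuretic peptides, and *Gvin2*, a large interferon-inducible GTPase with close gene copies, fell by 1.09 and 1.02 on the log2 scale (adjusted p = 0.00147 and 0.00122). *Calr4*, *Prss12* and *Fer1l6* fell by 1.22, 1.22 and 1.14, from at most 8.52 CPM in any control library. Their calls were weaker: *Calr4* was lost without ASP shGRIN2D replicate 1 (adjusted p = 0.0648) and replicate 3 (0.0918), *Prss12* in 5 of the 7 fits (up to 0.137, without ASP shGRIN2D replicate 1) and *Fer1l6* in 4 (up to 0.172, without ASP shGRIN2D replicate 2).

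**Figure D2:**
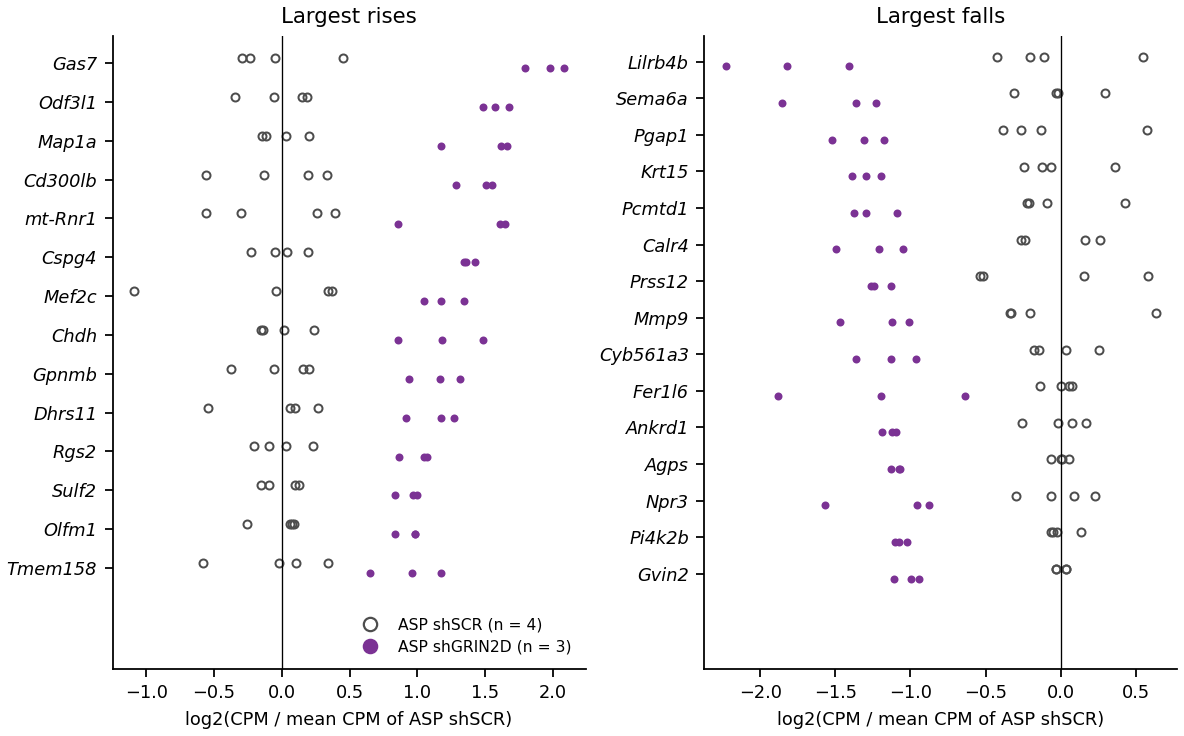
Each row is a gene and each point a library, placed by log2 of its CPM over the mean CPM of ASP shSCR, for the largest rises (left) and the largest falls (right). Open circles are the 4 ASP shSCR libraries and filled circles the 3 ASP shGRIN2D libraries. They do not overlap in any row, which was a condition for naming these genes.

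A short sequence in the 3′ UTR was more frequent among the genes called lower than among all genes, although most lower genes lacked it. All 7-base sequences were counted on the transcript strand in the annotated 3′ UTRs of 9857 genes whose mean reached 5 CPM, and of the 16391 sequences found, TCATGAA had the largest difference between genes called lower and all genes. It stood in 61 of 128 lower genes (47.7%, 95% Wilson interval 39.2% to 56.3%), in 5 of 58 higher genes (8.62%, 3.74% to 18.6%) and in 1313 of all 9857 (13.3%). Because the sequence was picked on these same calls, the shares are a description and have no test. Its reverse complement TTCATGA stood in 46.1% of the lower genes, and both overlap in the 8-base palindrome TTCATGAA, which stood in 40 of 128 lower genes (31.2%), in 0 of 58 higher genes (an upper Wilson limit of 6.21%) and in 4.92% of all genes. The next sequence, TTTCATG, overlaps both and stood in 43.0% against 18.4%. For the higher genes, the sequence with the largest difference was TCCTGCC, in 25 of 58 (43.1%) against 23.7% of all genes.

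The 5 falls with the smallest adjusted p among the 15 largest all held it, and their sites are shown because the description turns on them. Each line gives 29 bases of the transcript strand, 5′ to 3′, with the 7 bases in capitals, read from GENCODE transcripts of the GRCm38 assembly, whereas the count table was made on GRCm39.
Agps site 1, 3′ UTR, chr2:75927764-75927770, plus strand: aaaatgcatctTCATGAAggtgattctct
Agps site 2, 3′ UTR, chr2:75928229-75928235, plus strand: ggaacatgagtTCATGAAtatgcacaaag
Agps site 3, 3′ UTR, chr2:75928291-75928297, plus strand: tgcacatggctTCATGAAgctaagcccag
Pi4k2b, 3′ UTR, chr5:52769240-52769246, plus strand: tttgtaagcatTCATGAActtaattctta
Ankrd1, 3′ UTR, chr19:36112471-36112477, minus strand: tattcaggcttTCATGAAcatcattttgg
Pcmtd1, 3′ UTR, chr1:7170398-7170404, plus strand: aaccacagactTCATGAAattttacagac
Cyb561a3, 3′ UTR, chr19:10589791-10589797, plus strand: ggtattttactTCATGAAtcttattttta
Grin2d, coding sequence, chr7:45858553-45858559, minus strand: gcacaggtattTCATGAAcatcacctggg
All 8 windows hold TCATGAA by choice, and in 8 of 8 it is part of the palindrome TTCATGAA. On these same lower calls the palindrome had the largest difference of all 8-base sequences in the 3′ UTR. The 8 of 8 is therefore a description and has no test. Among the sites not shown, that of *Lilrb4b*, 4 of the 5 of *Pgap1*, 1 of the 2 of *Calr4* and both of *Sema6a* lie outside the palindrome. *Grin2d* held no copy in its 3′ UTR, 1 in its annotated 5′ UTRs and 1 in its coding sequence, the latter at bases 1082 to 1088 of 3972. Among the other large falls, *Pgap1* held 5 sites in a 3′ UTR of 7712 bases, *Sema6a* and *Calr4* 2 each and *Lilrb4b* 1, while *Krt15*, *Prss12*, *Mmp9*, *Fer1l6*, *Npr3* and *Gvin2* held none. Among the large rises, *Gas7* and *Chdh* held 1 each. A match is a run of letters and not a known binding site, and no mature miRNA of the 1679 in the RefSeq table had the matching seed UUCAUGA at bases 2 to 8. The seed that pairs with the reverse complement TTCATGA was not looked up. Whether the hairpin's own sequence holds a match was not tested.

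Longer 3′ UTRs held the sequence more often, and lower genes had longer ones (median 1768 bases against 1237 in all genes and 1132 in higher genes). By length class, on the same calls that picked it, the sequence stood in 23.1% of lower genes against 4.20% of all genes under 1000 bases, 45.1% against 13.6% from 1000 to under 2500 bases and 76.3% against 29.8% from 2500 bases. In coding sequences the 7 bases stood in 25.8% of lower genes, 5.17% of higher genes and 16.8% of all genes, and in 5′ UTRs in 1.56%, 1.72% and 1.21%. By number of sites, the median log2 fold change was 0.01 in 8544 genes without a site, -0.05 in 1124 genes with 1, -0.06 in 152 with 2 and -0.12 in 37 with 3 or more, and 0.784%, 3.83%, 8.55% and 13.5% of them were called lower. Since the sequence was picked on genes called lower in these same libraries, a downward shift of the genes that hold it is in part built in. With the called genes left out, the median was -0.05 in 1247 genes with a site and 0.01 in 8424 without. Set against the genes without a site, the median of genes with 2 or more sites lay at -0.11, -0.09 and -0.12 in the 3 knockdown libraries and at -0.05, 0.06, 0.00 and 0.01 in the 4 controls. With a hairpin against *Dhps*, which uses the same 4 control libraries, the medians for 0, 1, 2 and 3 or more sites were 0.00, -0.04, -0.06 and -0.12, but 4.11%, 4.98%, 3.29% and 8.11% of these genes were called lower. In the genes not called with shGRIN2D, the medians with the *Dhps* hairpin were -0.04 with a site and -0.0003 without, a shift of similar size. When genes with the sequence were not counted, 77 lower genes were left beside 77 higher ones. The larger loss among the lower genes is in part built in, since the sequence was picked on them.

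**Figure D3:**
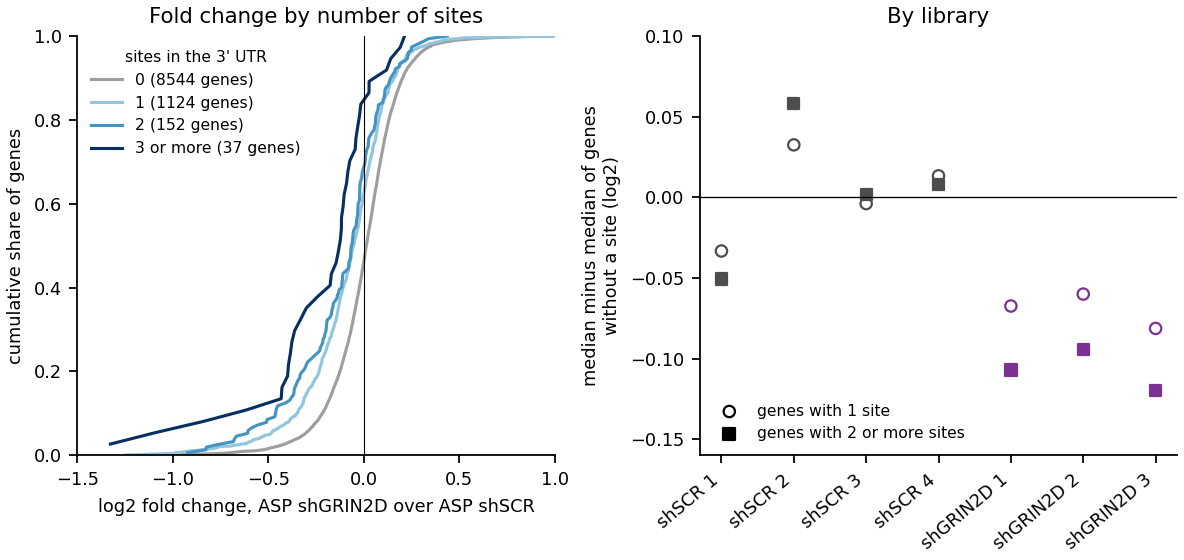
The left panel shows the cumulative share of genes (vertical) by log2 fold change of ASP shGRIN2D over ASP shSCR (horizontal), for 0, 1, 2 and 3 or more copies of the 7 bases in the 3′ UTR, with medians of 0.01, -0.05, -0.06 and -0.12. The right panel shows for each library the median log2 level, relative to ASP shSCR, of genes with 1 site (circles) or 2 or more sites (squares) minus that of genes without a site, which was lowest in the 3 ASP shGRIN2D libraries. The ASP shDHPS libraries are not shown.

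Among the genes called higher, *Gas7* (ENSMUSG00000033066), a protein that links actin to membranes and is best known from growing neurites, measured 1.88, 2.23, 1.96 and 3.14 CPM in ASP shSCR and 9.06, 9.75 and 7.998 CPM in ASP shGRIN2D. The lowest knockdown library was above each control by a wide margin. The log2 fold change was 1.98 (SE 0.27, adjusted p = 0.000212). *Odf3l1* (ENSMUSG00000045620), named for its likeness to a protein of sperm tail fibers, rose from 11.8, 8.41, 10.3 and 12.2 CPM to 34.1, 29.9 and 31.7 CPM (1.58, SE 0.14, adjusted p = 8.81e-07). *Map1a*, which binds microtubules in neurons, rose from 2.93, 3.29, 2.65 and 2.59 CPM to 9.06, 6.46 and 8.80 CPM (1.50, SE 0.22, adjusted p = 0.000541). The neuronal markers in the table, *Syn1* and *Map2*, were not called and summed to 19.2 to 23.7 CPM in ASP shGRIN2D and 23.4 to 25.7 CPM in ASP shSCR. *Chdh*, the mitochondrial enzyme that turns choline toward betaine, rose from 9.36, 9.30, 10.4 and 12.2 CPM to 28.8, 18.7 and 23.4 CPM (1.20, SE 0.17, adjusted p = 0.000462).

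Of the other genes named for their rise, *Cd300lb*, an activating receptor of myeloid cells, measured 3.45, 2.51, 1.86 and 3.14 CPM in the controls and 8.03, 6.69 and 7.80 CPM with the knockdown (1.46, SE 0.22, adjusted p = 0.000786). *Cspg4*, the NG2 proteoglycan of the cell surface, measured 2.23, 2.00, 1.67 and 1.89 CPM and then 5.00, 5.23 and 4.93 CPM (1.37, SE 0.23, adjusted p = 0.00186). In both, the knockdown libraries lay close together, while a lack of overlap with the controls was a condition for naming. *Sulf2*, an enzyme that trims sulfate from heparan sulfate outside the cell, rose from 19.4, 23.7, 20.3 and 23.1 CPM to 42.2, 38.5 and 43.1 CPM (0.94, SE 0.12, adjusted p = 8.14e-05). *Olfm1*, a secreted glycoprotein abundant in brain, rose from 126, 98.9, 124 and 123 CPM to 233, 233 and 210 CPM (0.93, SE 0.10, adjusted p = 1.27e-05). *Rgs2*, which shuts off G protein signals, rose from 8.39, 7.13, 9.65 and 7.70 CPM to 17.05, 17.3 and 15 CPM (1.00, SE 0.14, adjusted p = 0.00037). These genes were called in each of the 7 fits without 1 library. *Mef2c*, a transcription factor driven by calcium in muscle and neurons, had few counts and a wide spread, 1.14, 3.12, 2.35 and 3.06 CPM against 5.00, 5.46 and 6.13 CPM (1.22, SE 0.27, adjusted p = 0.0212), and its call was lost in 5 of the 7 fits (up to 0.124, without ASP shGRIN2D replicate 3). *Tmem158* and *Dhrs11* rose by 0.93 and 1.11, with calls lost in 3 fits (up to 0.176, without ASP shGRIN2D replicate 3) and in 7 (up to 0.22, without ASP shGRIN2D replicate 1).

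Genes of antigen presentation by MHC class I molecules, which show peptides of the cell to cytotoxic T cells, stood higher with the knockdown. This group of 24 genes was put together after values had been seen. Of its members 5 were called higher (20.8%, against 0.425% of all genes in that direction) and 0 lower, 23 of 24 log2 fold changes were above 0, and their median was 0.37 against 0.00 for all genes. *B2m* (ENSMUSG00000060802), the light chain of every class I molecule, measured 467, 447, 419 and 444 CPM in ASP shSCR and 616, 688 and 690 CPM in ASP shGRIN2D (0.58, SE 0.09, adjusted p = 0.00094). *H2-K1*, a heavy chain, measured 144, 161, 138 and 141 CPM and then 212, 201 and 220 CPM (0.53, SE 0.09, adjusted p = 0.00172). *H2-D1*, the other classical heavy chain called, measured 431, 477, 428 and 407 CPM and then 633, 625 and 644 CPM (0.54, SE 0.09, adjusted p = 0.00175). For these 3 genes the groups did not overlap and the call held in each of the 7 fits, although the class I heavy chain genes are alike in sequence and reads may have been shared among them. *Nlrc5*, the activator of class I genes, measured 9.36, 10.7, 12.7 and 10.1 CPM against 18.9, 16.3 and 15.9 CPM (0.67, SE 0.15, adjusted p = 0.0311, lost in 5 of 7 fits with up to 0.228 without ASP shGRIN2D replicate 1). *H2-Q10* rose by 0.84 (adjusted p = 0.0239, lost in 6 fits with up to 0.135 without ASP shGRIN2D replicate 1). By library, the median of the 18 members with at least 5 CPM lay at 0.38, 0.30 and 0.41 in ASP shGRIN2D, relative to the mean of ASP shSCR, and at -0.08, 0.29, -0.09 and -0.09 in ASP shSCR. Replicate 2 of ASP shSCR thus reached the level of the knockdown, and without it 10 members were called higher and the median was 0.52. The leukocyte markers, which summed to 0.412 to 1.70 CPM in ASP shGRIN2D and 0.445 to 1.18 CPM in ASP shSCR, overlapped between groups.

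Of a list of 34 interferon response genes, *B2m* was called higher and *Ifit2*, an RNA-binding antiviral protein, lower, and the median was 0.03, or 0.15 without replicate 2 of ASP shSCR. Of the 102 genes measured in the Hallmark list of the interferon alpha response 4 were called higher and 1 lower (6 and 1 without that replicate), and of the 187 of the interferon gamma response 6 higher and 2 lower (9 and 1 without it), against 0.425% and 0.732% of all genes. The higher calls of both Hallmark lists include *B2m*, *H2-D1* and *H2-Q10*. *Ifit2* measured 13.3, 14.03, 14.5 and 15.2 CPM in the controls and 9.06, 9.98 and 7.87 CPM with the knockdown (-0.66, SE 0.14, adjusted p = 0.019, lost in 3 of 7 fits with up to 0.158 without ASP shGRIN2D replicate 3). *Tlr3*, the endosomal sensor of double-stranded RNA, measured 31.0, 45.6, 34.5 and 37.9 CPM and then 22.8, 28.2 and 25.4 CPM (-0.55, SE 0.13, adjusted p = 0.0459, lost in 6 fits with up to 0.291 without ASP shGRIN2D replicate 1). In neither gene did a library of one group lie within the range of the other. Among 12 genes of the RNA interference machinery 0 were called, and *Ago2*, the Argonaute that cuts target mRNAs, measured 381, 432, 366 and 338 CPM in ASP shSCR and 537, 462 and 476 CPM in ASP shGRIN2D (0.37, adjusted p = 0.239).

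Several epithelial genes fell. Of 24 measured, 5 were called lower (20.8%, against 0.732% of all genes) and 0 higher, 6 of 24 log2 fold changes were above 0, and the median was -0.11. *Krt7* (ENSMUSG00000023039), a keratin of simple epithelia, measured 927, 824, 868 and 829 CPM in ASP shSCR and 554, 526 and 576 CPM in ASP shGRIN2D (-0.64, SE 0.09, adjusted p = 0.000297). *Krt15*, a keratin of basal cells, measured 5.51, 7.41, 5.29 and 4.87 CPM and then 2.52, 2.35 and 2.20 CPM (-1.29, SE 0.23, adjusted p = 0.00391). *Esrp1*, the factor that sets epithelial splicing, measured 76.9, 85.8, 79.9 and 82.9 CPM and then 56.4, 53.4 and 58.4 CPM (-0.54, SE 0.10, adjusted p = 0.00391). These 3 genes were called in all 7 fits, and their groups lay well apart. *Krt18* went from 1236, 1303, 1175 and 1161 CPM to 900.2, 816 and 934 CPM (-0.46, SE 0.10, adjusted p = 0.019), and its call was lost without ASP shGRIN2D replicate 1 (0.0836), 2 (0.147) or 3 (0.0578). *Cldn7*, a claudin of tight junctions, went from 91.2, 73.1, 86.0 and 80.8 CPM to 60.4, 57.1 and 55.1 CPM (-0.52, SE 0.11, adjusted p = 0.0172, lost in 4 of 7 fits with up to 0.122 without ASP shGRIN2D replicate 3). Outside this list, and chosen after their values were seen, the claudin *Cldn9*, the recycling GTPase *Rab25* and the polarity protein *Pard6b* fell by 1.13, 0.51 and 0.39, each with a call lost in 4 or more of the fits (up to 0.134, 0.151 and 0.226). In these bulk libraries of a carcinoma line, fewer cells with these RNAs and less of these RNAs per cell cannot be told apart. No mesenchymal gene of 14 was called, and *Vim*, the filament of mesenchymal cells, measured 1135, 1192, 1138 and 1201 CPM against 1474, 1301 and 1544 CPM (0.30, adjusted p = 0.133).

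**Figure D4:**
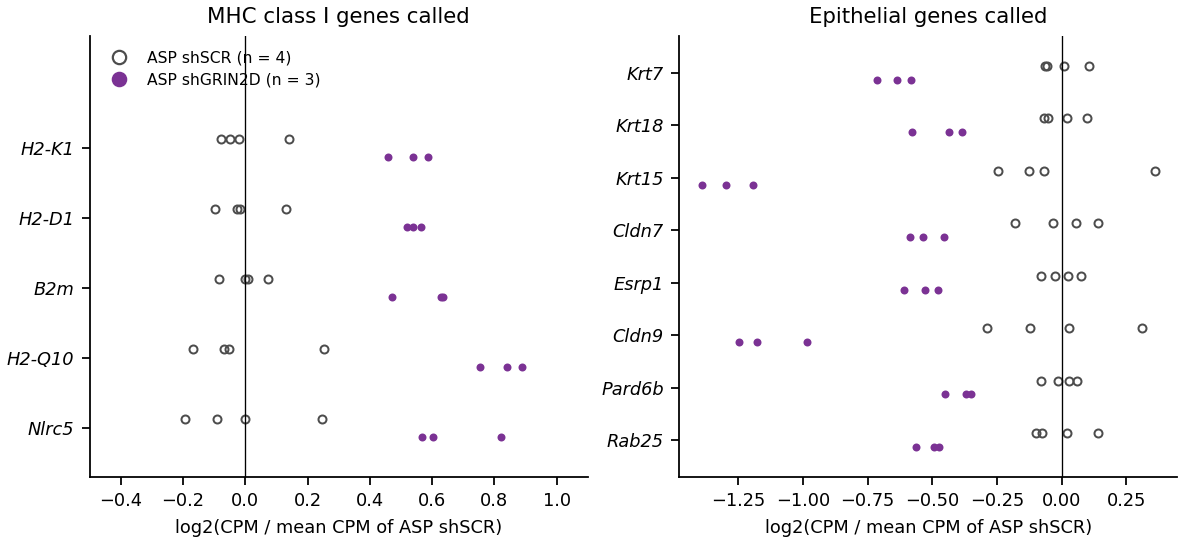
Each row is a gene and each point a library, placed by log2 of its CPM over the mean CPM of ASP shSCR, for the MHC class I genes called (left) and the epithelial genes called (right). In all rows the 3 ASP shGRIN2D libraries (filled) lie on one side of the 4 ASP shSCR libraries (open), above them for the 5 class I genes and below them for the epithelial genes. Nearly all called genes show such a lack of overlap.

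Both mitochondrial ribosomal RNAs were higher, a group also put together after values had been seen. *mt-Rnr1*, the RNA of the small mitochondrial ribosomal subunit, measured 200, 136, 113 and 219 CPM in ASP shSCR and 508, 523 and 303 CPM in ASP shGRIN2D (1.42, SE 0.24, adjusted p = 0.00221, and 0.0938 with edgeR's robust prior). *mt-Rnr2*, that of the large subunit, measured 859, 630, 752 and 893 CPM and then 1550, 1290 and 1115 CPM (0.75, SE 0.13, adjusted p = 0.00299, and 0.0566 without ASP shGRIN2D replicate 1). The knockdown libraries were above all controls for both RNAs. The 13 mitochondrial mRNAs were not called, and the median of all 15 mitochondrial genes was 0.22. Mitochondrial genes held 5.81% to 6.23% of the counts in ASP shGRIN2D and 4.53% to 6.11% in ASP shSCR. What part the capture of these RNAs in a poly(A) library has in the rise was not tested.

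The study followed the receptor to CREB, to hypusination of the translation factor eIF5A, to TGF-β and to collagen synthesis, so the genes of these steps were looked up in turn. Only 1.16% of all genes were called, so 0 calls in lists this short tell little about their members. The paper read these steps mainly from hypusine, phosphorylated CREB, a phosphorylated Smad, collagen staining and polysome ratios, which these RNA counts do not measure. By PCR it also reports that *Grin2d* silencing abolished the rise of *Dohh* mRNA with aspartate. No value for *Dohh* alone is given here, and whether the modifications changed was not tested. Of 12 genes of eIF5A hypusination, the polyamine-dependent modification that activates eIF5A, 0 were called, and their log2 fold changes lay between -0.23 and 0.27 with a median of 0.06. Of 11 CREB factors and coactivators 0 were called, and *Creb3l2* had the smallest p, with 31.7, 44.7, 30.7 and 31.0 CPM against 32.4, 24.7 and 23.7 CPM (-0.36, adjusted p = 0.36, groups overlapping). Of 20 immediate-early genes 0 were called, and *Nr4a2*, a nuclear receptor induced by calcium and cyclic AMP, measured 6.78, 5.68, 7.15 and 6.21 CPM against 11.2, 7.10 and 11.2 CPM (0.60, adjusted p = 0.0859). Of 26 calcium-dependent kinases and phosphatases only *Camk1d*, a calmodulin-dependent kinase, was called. It measured 37.0, 41.2, 38.8 and 41.2 CPM in ASP shSCR and 61.1, 60.5 and 56.8 CPM in ASP shGRIN2D (0.59, SE 0.13, adjusted p = 0.0265), although the call was lost in 6 of the 7 fits (up to 0.14, without ASP shGRIN2D replicate 1).

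Single ligands of the TGF-β family were called in opposite directions. Of 26 ligands, receptors and Smads, *Tgfb3* was called higher and *Inhba* lower, with a median of 0.03. Of all genes, 0.425% were called higher and 0.732% lower. *Tgfb3*, a TGF-β ligand, measured 67.9, 73.9, 69.3 and 67.3 CPM in ASP shSCR and 105, 83.3 and 104 CPM in ASP shGRIN2D (0.48, adjusted p = 0.0101, and 0.107 without ASP shGRIN2D replicate 1 or 0.105 without replicate 3). *Inhba*, the activin A subunit, measured 39.7, 51.8, 30.9 and 38.3 CPM and then 21.2, 23.9 and 22 CPM (-0.85, SE 0.16, adjusted p = 0.00747, and 0.0681 without ASP shGRIN2D replicate 1 or 0.0562 without replicate 3). In neither gene did the groups overlap. Of 17 TGF-β response genes only *Pmepa1*, a feedback inhibitor of Smads, was called, at 152, 168, 128 and 161 CPM against 111, 111 and 100.1 CPM (-0.50, SE 0.12, adjusted p = 0.0459), and that call was lost in 6 of 7 fits (up to 0.267, without ASP shGRIN2D replicate 3).

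Single genes of the extracellular matrix rose, where 0.425% of all genes were called higher and 0.732% lower. Such single calls are not read as a result about a list. Of 29 collagen chains only *Col6a1* (ENSMUSG00000001119), which forms beaded microfibrils, was called, at 44.7, 48.3, 45.8 and 47.7 CPM in ASP shSCR and 77.2, 86.1 and 83.9 CPM in ASP shGRIN2D (0.82, SE 0.14, adjusted p = 0.00276, called in all 7 fits). The paper reports the other direction for protein, a rise of Col6a1 staining with aspartate in lung metastases that *Grin2d* silencing abolished. That is protein in and around metastases, whereas these counts are RNA of spheroids. Of 22 collagen-modifying enzymes only *Crtap*, a partner of the prolyl 3-hydroxylase, was called, at 90.5, 81.2, 90.0 and 91.5 CPM against 118, 111 and 117 CPM (0.38, SE 0.08, adjusted p = 0.0202, lost in 4 of 7 fits with up to 0.135 without ASP shGRIN2D replicate 1). Among 28 laminins and integrins, *Itgb3*, the β3 chain that binds vitronectin, rose from 21.7, 25.2, 21.6 and 16.1 CPM to 40.5, 33.5 and 28.9 CPM (0.70, SE 0.15, adjusted p = 0.019). Its call was lost without ASP shSCR replicate 4 (0.0759) and ASP shGRIN2D replicates 1 (0.207) and 2 (0.0688). The collagen-binding *Itga10* rose by 1.43 from at most 1.39 CPM in a control (adjusted p = 0.041, lost in 6 fits with up to 0.216 without ASP shGRIN2D replicate 3). Of 30 matrix proteases and inhibitors, *Mmp9* alone was called. *Has2*, the hyaluronan synthase, was named after its values were seen, and fell from 53.4, 71.9, 51.6 and 59.5 CPM to 32.9, 33.7 and 31.5 CPM (-0.85, SE 0.14, adjusted p = 0.00165, called in all 7 fits).

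Genes of hypoxia and glycolysis lay lower with the knockdown only as long as replicate 2 of ASP shSCR was in the comparison. Of 19 hypoxia genes 0 were called, yet 17 were below 0, with a median of -0.41. *Ankrd37*, a target of hypoxia-inducible factors, measured 3.85, 26.3, 3.38 and 2.75 CPM in ASP shSCR and 1.49, 1.82 and 1.20 CPM in ASP shGRIN2D (-2.58, adjusted p = 0.113). The control at 26.3 CPM was replicate 2, whose median over hypoxia genes was 0.89 above the mean of its group, against -0.31, -0.26 and -0.30 in the other 3 controls. Without it, 8 of the 19 genes were below 0 and the median was 0.05. Likewise the median of 21 glycolysis genes was -0.23 with it and -0.06 without it, and 0 were called.

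Genes of the cell cycle lay slightly lower on median. Of 40 measured, 2 were called lower (5%, against 0.732% of all genes) and 0 higher. All 40 had a mean of 5 CPM or more, and among such genes with a 3′ UTR 1.3% were called lower. The log2 fold changes of 29 were below 0, and the median was -0.15 with and without replicate 2 of ASP shSCR. *Ccne1*, the cyclin that drives entry into S phase, measured 21.3, 13.4, 23.2 and 23.96 CPM in ASP shSCR and 9.12, 12.7 and 9.06 CPM in ASP shGRIN2D (-0.99, SE 0.19, adjusted p = 0.00835, and 0.0836 without ASP shGRIN2D replicate 1 or 0.0856 without replicate 3). *Mcm3*, a subunit of the replicative helicase, measured 197, 178, 210 and 207 CPM and then 156, 142 and 150 CPM (-0.41, SE 0.09, adjusted p = 0.0242, lost in 6 of 7 fits with up to 0.159 without ASP shGRIN2D replicate 2). The larger Hallmark list of E2F targets gave 5 lower (2.51%) and 0 higher of 199, with 155 below 0 and a median of -0.12. *Ccng1*, the p53 target cyclin G1, fell from 58.8, 56.6, 51.4 and 50.3 CPM to 26.9, 27.9 and 31.4 CPM (-0.92, SE 0.11, adjusted p = 4.85e-05, called in all 7 fits), and it was the only one called of 21 p53 and apoptosis genes. *Ccne1* and *Ccng1* each held 1 copy of TCATGAA in the 3′ UTR and *Mcm3* none.

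Lysosomal genes leaned upward. Of 27 lysosome and autophagy genes 2 were called higher (7.41%, against 0.425% of all genes in that direction) and 0 lower, 23 were above 0, and the median was 0.17. *Gpnmb*, a glycoprotein of lysosomes and melanosomes, measured 11.1, 16.4, 13.8 and 15.9 CPM in ASP shSCR and 27.4, 32.1 and 35.6 CPM in ASP shGRIN2D (1.15, SE 0.18, adjusted p = 0.00122, called in all 7 fits). *Lamp1*, a main protein of the lysosomal membrane, measured 634, 582, 633 and 636 CPM and then 749.7, 808 and 789.5 CPM (0.33, SE 0.08, adjusted p = 0.0416), and its call was lost in each of the 7 fits (up to 0.2, without ASP shGRIN2D replicate 2). *Gsr*, which regenerates glutathione, was the only one called of 28 glutathione and oxidant defense genes, at 338, 332, 327 and 374 CPM against 229, 235 and 248 CPM (-0.53, SE 0.09, adjusted p = 0.00175, called in all 7 fits). The iron store *Fth1*, named after its values were seen, rose from 7746, 6079, 7487 and 8058 CPM to 9383, 11244 and 9971 CPM (0.47, adjusted p = 0.025, lost in 5 fits with up to 0.193 without ASP shGRIN2D replicate 2). Its mRNA has processed copies in the genome that can share reads.

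Inflammatory genes gave single falls, where 0.732% of all genes were called lower. Of 28 cytokines and chemokines only *Il1a*, an alarm cytokine of epithelial cells, was called, at 147, 208, 129 and 164 CPM in ASP shSCR and 117, 121 and 101 CPM in ASP shGRIN2D (-0.52, adjusted p = 0.0444, lost in 5 of 7 fits with up to 0.295 without ASP shGRIN2D replicate 3). The list's median was -0.30 and without replicate 2 of ASP shSCR -0.07. *Tnfaip3*, the inhibitor A20 of NF-κB, and *Il24* were named after their values were seen and fell by 0.77 and 0.71 (adjusted p = 0.0337 and 0.0444), with calls lost in 4 and 6 fits (up to 0.168 and 0.294, both without ASP shGRIN2D replicate 2). The Hallmark list of TNF and NF-κB targets held 2 higher and 8 lower of 187 with a median of 0.00 (0.425% and 0.732% of all genes were called in these directions), and 2 higher and 4 lower without replicate 2 of ASP shSCR.

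Transport and use of aspartate showed no called gene. Only 1.16% of all genes were called, so 0 calls in lists this short tell little about their members. Of 25 amino acid transporters 0 were called, and *Slc6a9*, a carrier of the co-agonist glycine, measured 60.1, 56.6, 73.9 and 74.5 CPM against 92.3, 86.7 and 110 CPM (0.54, adjusted p = 0.118). Of 16 enzymes that use aspartate 0 were called, and *Asl*, which splits argininosuccinate, measured 17.2, 18.2, 16.7 and 17.4 CPM against 12.4, 12.7 and 14 CPM (-0.41, adjusted p = 0.113). Of 23 genes of the integrated stress response 0 were called, and *Cth*, an enzyme of cysteine synthesis, measured 10.01, 11.03, 7.74 and 10.3 CPM against 5.61, 6.4 and 5.13 CPM (-0.77, adjusted p = 0.0748). In all 3 genes the groups did not overlap, as held for 12% of all genes. *Glul*, glutamine synthetase, was named after its values were seen and fell from 32.5, 39.6, 31.5 and 42.2 CPM to 23.5, 23.1 and 22.4 CPM (-0.66, SE 0.13, adjusted p = 0.00732, and 0.0591 without ASP shGRIN2D replicate 3).

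Several other lists each held 1 called gene or none, where 1.16% of all genes were called. *Sfrp1*, a secreted Wnt antagonist, was the only one of 34 Wnt pathway genes, at 12.2, 15.1, 12.3 and 17.2 CPM against 8.39, 7.16 and 9.06 CPM (-0.79, adjusted p = 0.0136, lost in 3 of 7 fits with up to 0.115 without ASP shGRIN2D replicate 2). *Gas7* was the only one of 36 cytoskeleton and motility genes and *Sema6a* the only one of 56 guidance genes. No gene was called of 20 in the Notch pathway, 24 receptor tyrosine kinase and MAP kinase feedback genes or 28 genes of cholesterol synthesis, where 22 were below 0 with a median of -0.10. Named after their values were seen, the transcription factors *Xbp1*, *Ets2* and *Esr1* fell by 0.58, 0.62 and 0.83, and the chromatin protein *Hmga2* rose from 487, 428, 486 and 470 CPM to 673, 614 and 636 CPM (0.45, adjusted p = 0.00419, and 0.0568 without ASP shGRIN2D replicate 1). *Xbp1* was lost without ASP shGRIN2D replicates 2 (0.0638) and 3 (0.057), *Ets2* in 3 fits and *Esr1* in 6 (up to 0.0907 and 0.192, both without ASP shGRIN2D replicate 2). Beside *Pgap1*, the GPI anchor genes *Pign* and *Cwh43* fell by 0.61 and 0.44, and beside *Agps*, *Phyh*, a peroxisomal enzyme of fatty acid oxidation, fell by 0.56. These last 3 calls were lost in 5, 7 and 5 fits (up to 0.174, 0.232 and 0.305).

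The knockdown of *Dhps*, the first enzyme of hypusination, shares the 4 ASP shSCR libraries with this comparison, so values are only set side by side. The log2 fold changes with shGRIN2D and shDHPS were -1.09 and -0.20 for *Agps*, -1.07 and -0.12 for *Pi4k2b*, -1.13 and -0.08 for *Ankrd1*, -1.25 and -0.29 for *Pcmtd1* and -1.14 and 0.15 for *Cyb561a3*. They were 1.98 and 0.10 for *Gas7*, 1.58 and 0.09 for *Odf3l1*, 0.94 and -0.10 for *Sulf2*, 0.82 and 0.18 for *Col6a1* and 0.70 and -1.22 for *Itgb3*. They were -1.33 and -1.49 for *Pgap1*, -1.19 and -1.51 for *Mmp9*, -1.29 and -1.88 for *Krt15*, -0.64 and -0.57 for *Krt7*, 1.15 and 2.19 for *Gpnmb* and 0.58 and 0.48 for *B2m*. The difference between both knockdowns was not tested.

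Called genes were spread over the genome. On chromosome 18 all 8 called genes were lower, as were all 4 on chromosome 16, while all 4 on chromosome 12 were higher. Each other autosome held calls in both directions. The share called on the 19 autosomes lay between 0.559% on chromosome 12 and 2.29% on chromosome 15 (17 of 743 genes), and 2 of 15 mitochondrial genes were called.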

How the data were processed

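RNA from the cytosolic lysate was sequenced after poly(A) selection with a stranded kit. The deposited counts are whole numbers that the authors rounded from Salmon 1.4.0 estimates, after Trim Galore 0.6.6 and STAR 2.6.1 on GRCm39. Genes not expressed in 2 or more replicates of any condition had been removed by the authors. Salmon divides reads among near-identical transcripts, so counts of gene copies are less certain. The authors' tables of fold changes, p-values and enrichment scores concern another comparison and were not used, and from the deposited gene sets only names were read.

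Counts were normalized with TMM (factors 0.984 to 1.02) in edgeR 4.0.16 (R 4.3.3). Its quasi-likelihood test was run in 1 fit of the 14 libraries by group, without other terms, with Benjamini-Hochberg adjustment across 19525 genes and a threshold of 0.05. The script was tested on simulated data, where the share of false calls lay somewhat above the threshold. Groups and replicate numbers came from the sample descriptions. Replicates are described as biologically independent in the study's methods, without saying which cultures they came from, and p-values measure the spread between these libraries. The alternatives were DESeq2 1.42.0, RLE factors, library size alone, filterByExpr, a robust prior, a test against 1.5-fold, only the 2 groups, the replicate number as a block, and each library left out in turn.

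Members, lists and tests were chosen with earlier results of these data known. Named genes were *Grin2d*, the 15 largest rises and the 15 largest falls among called genes that reached a mean of 5 CPM in the higher group, had no overlap between groups and were not predicted models or pseudogenes, called members of the lists, and the member with the smallest p of a list without a call. 1 gene given by this rule is not reported here. Groups and genes named after their values were seen are marked so. The 7-base sequences were counted in GENCODE transcripts of GRCm38, matched to 14115 of the 19525 genes by gene identifier, over all annotated 3′ UTRs of a gene. miRNA sequences were from RefSeq. Wilson intervals cover counting error only.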

Additional observations from a re-analysis of the deposited data

Results flagged for a closer look

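In 8 genes named here, ASP shSCR replicate 2 lay far from the other 3 control libraries by Dixon's ratio, among 85 genes looked at. For an outlier in any of the control libraries, chance alone gives about 4.2 if genes are independent. That number is not the one for replicate 2 alone, and the genes were named on these same libraries. It was high for *Mmp9* (109.7 CPM, the nearest control at 61.4), *Tnfaip3* (114.2, nearest 69.7), *Ankrd37* (26.3, nearest 3.85), *Pcmtd1* (56.0, nearest 39.2) and *Creb3l2* (44.7, nearest 31.7). It was low for *Olfm1* (98.9 CPM, nearest 123), *Lamp1* (581.5, nearest 633.5) and *Crtap* (81.2, nearest 90.0). All 8 outlying values came from the same library, which also lay far out on the principal components, as ASP shSCR replicate 4 did on the second. The adjusted p without this library was recomputed for each gene, and *Mmp9*, *Pcmtd1* and *Olfm1* stayed called, whereas *Tnfaip3*, *Lamp1* and *Crtap* did not and *Ankrd37* and *Creb3l2* were not called with or without it.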

How the results depend on the processing

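Of the 226 called genes, each kept its direction under every alternative that tested it. RLE factors, library size alone, filterByExpr and the robust prior gave 227 to 238 calls. The robust prior ended the calls of *Mmp9*, *Pgap1*, *mt-Rnr1*, *Pard6b* and *Tnfaip3* (edgeR adjusted p 0.0744, 0.074, 0.0938, 0.0517 and 0.155), and filterByExpr those of *Dhrs11*, *Il1a*, *Il24*, *Pmepa1*, *Tlr3* and *Tnfaip3* (0.0512 to 0.0555). DESeq2 called 440 genes (157 higher, 283 lower), with 22 list members higher and 38 lower against 13 and 18. A fit of only the 2 groups called 374 (145 higher, 229 lower; list members 24 and 34). A test against 1.5-fold left 8 (4 higher, 4 lower; list members 2 and 0), among them *Agps*, *Pi4k2b*, *Ankrd1*, *Pcmtd1*, *Gas7* and *Odf3l1*. With the replicate number as a block 611 were called (233 higher, 378 lower; list members 39 and 58). The numbers did not pair the libraries, since deviations of same-numbered libraries correlated at -0.10, -0.12 and 0.04. Leaving out 1 library gave 86 to 208 calls (28 to 80 higher, 55 to 128 lower; list members 7 to 14 and 7 to 17). Beside the knockdown libraries, leaving out ASP shSCR replicate 4 gave 132, and without ASP shSCR replicate 1 there were 55 higher. Without genes holding TCATGAA, 77 lower genes were left, a drop that is in part built in because the sequence was picked on the lower genes. *Grin2d* stayed between -0.76 and -0.44 when 1 library was left out, and its adjusted p lay between 0.349 and 1 over 15 alternatives. The share of lower genes with TCATGAA was 40.2% with DESeq2 calls and 50% without ASP shSCR replicate 2, an alternative chosen after seeing the data. With 37 to 76 counts of *Grin2d* in a library, a small fall could not be told from no change. Falls beyond -1.18 on the log2 scale lay outside the confidence interval of the main fit. The cause of these differences was not tested.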
